A study of Homo sapiens with 12 samples.

Results

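The factors that lengthen and finish a protein chain, and the enzymes that act on them, were followed through RNA immunoprecipitation (RIP) peak lists from HepG2 cells, a widely used line of human liver cancer origin. The set held 10 genes, taken by gene name: EEF1A1, EEF1B2, EEF1D, EEF1G, EEF2, EEF2K, ETF1, GSPT1, EIF5A and EIF5. Of these, 9 carried at least 1 peak in the 6 lists, among 10830 gene names in all, and they held 100 of 101848 peaks. EEF1G had no peak in any list. 2 of the 10 genes are not elongation or termination factors in a strict sense: EEF2K encodes a kinase, and EIF5 an initiation factor.

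The 12 samples were 6 inputs and 6 RIP samples, 2 replicates each for METTL16, an RNA methyltransferase, and for eIF3a and eIF3b, subunits of translation initiation factor 3. HepG2 cells were infected with pmiRNA1-3XFlag-METTL16, with pSIN4-3XFlag-eIF3a or with pSIN4-3XFlag-eIF3b, so every line carried a tagged protein added to that made by the cell, and per the study's methods the cells were cross-linked with ultraviolet light. Per the labels, METTL16 and eIF3b were pulled down through the Flag tag and eIF3a with an antibody to eIF3a, whereas the deposited lists are all named for Flag. If the labels hold, antibody and protein cannot be told apart for eIF3a. The methods call the replicates biological. Each RIP sample gave 1 list of 12921 to 21733 peaks, the inputs entered through the peak calling, and neither a mock pull-down nor read counts were analysed here, so the depth behind a peak is unknown. A peak shows enrichment over input, not the amount of an RNA, and in a bulk lysate fewer cells with an RNA and less RNA per cell cannot be told apart. Liver genes were in the lists unevenly: HNF4A, a liver transcription factor, had a peak in 6 lists, the apolipoprotein genes APOA1 and APOB in 5 each, the fetal serum protein gene AFP in 2 and the albumin gene ALB in 1.

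In each elongation cycle eEF1A, the product of EEF1A1, brings an aminoacyl-tRNA to the ribosome, and the eEF1B complex, made from EEF1B2, EEF1D and EEF1G, reloads it with GTP. eEF2 then moves the ribosome along by a codon, and eIF5A, which carries the unusual amino acid hypusine, helps at difficult peptide bonds and at termination. At a stop codon eRF1, the product of ETF1, enters with the GTPase eRF3a, the product of GSPT1, and the finished chain is released. Many mRNAs of elongation factors begin with a cytosine followed by a run of pyrimidines, the 5′ terminal oligopyrimidine (5′ TOP) element, through which their own translation is controlled.

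2 exons show where peaks did and did not reach the codons of the modified amino acids. Both sequences are given on GRCh38 in transcript direction, from GENCODE release 44 transcripts. The first is exon 13 of EEF2, minus strand, chr19:3977428-3977610, with the histidine codon that is modified to diphthamide in capitals, and this codon lay under a peak in all 6 lists. The second is exon 2 of EIF5A, plus strand, chr17:7309615-7309800, with the lysine codon that is converted to hypusine in capitals, and this codon lay under a peak only in METTL16 replicate 2.
EEF2 exon 13: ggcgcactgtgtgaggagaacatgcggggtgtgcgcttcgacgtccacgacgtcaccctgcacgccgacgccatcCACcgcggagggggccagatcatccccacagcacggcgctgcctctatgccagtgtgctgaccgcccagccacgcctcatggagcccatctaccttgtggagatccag
EIF5A exon 2: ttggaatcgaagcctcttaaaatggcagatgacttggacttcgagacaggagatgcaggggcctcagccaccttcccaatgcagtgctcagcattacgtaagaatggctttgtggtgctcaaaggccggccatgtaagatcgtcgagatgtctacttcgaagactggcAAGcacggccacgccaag

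Peaks were present in all 6 lists for EEF2, EEF2K and EEF1D, in 5 for EIF5A, in 4 for EEF1A1 and ETF1, in 3 for GSPT1 and EIF5, and in 1 for EEF1B2. METTL16 replicate 1 had a peak in 5 of the 10 genes and replicate 2 in 8, against 53.8% and 58.5% of the 10830 gene names. The eIF3a replicates had 6 and 4 genes, against 75.4% and 48.3%. The eIF3b replicates had 7 and 8, against 74.5% and 69.9%. The background counts only gene names that occur in the lists, a condition that EEF1G does not meet. The counts of the replicates of a protein thus differed by 1 to 3 genes.

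A gene was called bound when both replicates of a protein held a peak in it. METTL16 bound 5 of the 10 genes, EEF1A1, EEF1D, EEF2, EEF2K and EIF5A, where 42.6% of all gene names met the same rule. eIF3a bound 4, EEF1D, EEF2, EEF2K and GSPT1, against 42.4%. eIF3b bound 7, EEF1A1, EEF1D, EEF2, EEF2K, ETF1, EIF5A and EIF5, against 60.0%. The 3 genes with a peak in all 6 lists compare with a background of 25.2%. These counts were all near their background shares.

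**Figure D1:**
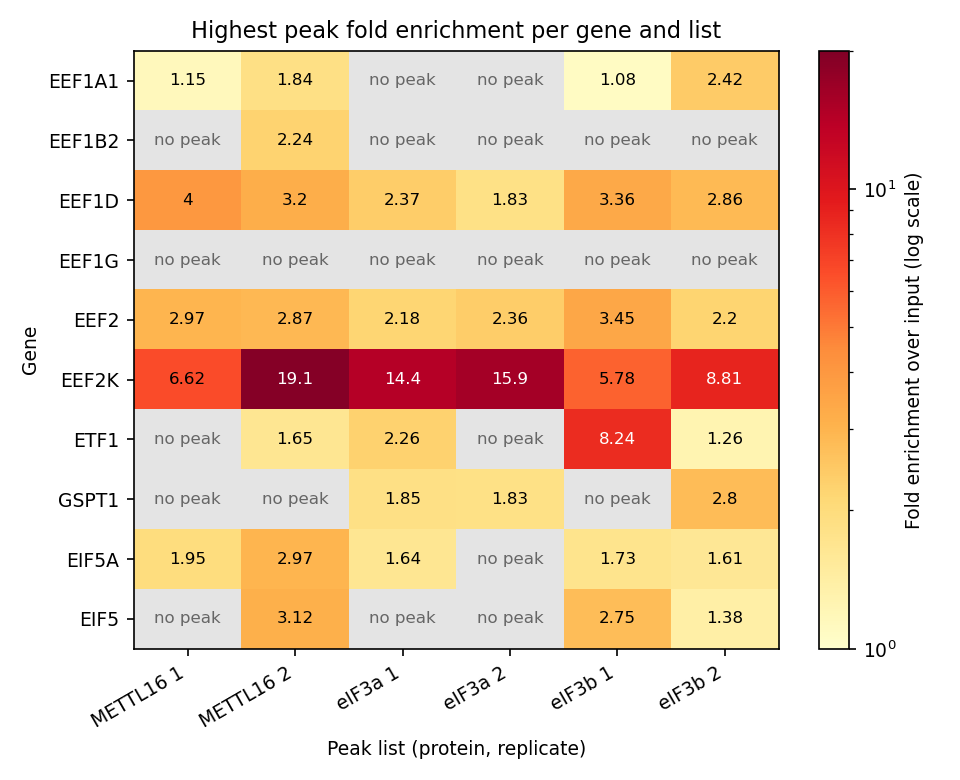
Highest fold enrichment over input among the peaks of each gene (rows) in each list (columns, protein and replicate number), on a log colour scale with the value printed in the cell. EEF2K had the highest value of the 10 genes in 5 of the 6 lists, the exception being eIF3b replicate 1, where ETF1 stood at 8.24 and EEF2K at 5.78.

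EEF2 (chr19:3976056-3985463, minus strand), the gene of the translocase, carried the longest peaks. Its canonical transcript has 15 exons and 3158 exon bases, of which 69.0% and 52.9% lay under peaks in the METTL16 lists, 54.7% and 60.4% in the eIF3a lists and 70.8% and 54.8% in the eIF3b lists. All lists held 1 long spliced peak from exon 10 to exon 15 that ran through the stop codon and ended 81 to 141 bases into the 3′ untranslated region (UTR). In eIF3a replicate 2 it was joined to the region upstream, from exon 6, into 1 peak of 1908 bases, the widest of the 100. Fold enrichment of this long peak was 2.97 and 2.87 in the METTL16 lists, 2.18 and 2.36 in the eIF3a lists and 3.45 and 2.20 in the eIF3b lists. The METTL16 values lay above the eIF3a values, and the eIF3b values overlapped the range of the eIF3a values and reached above both METTL16 values.

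The 5′ portion of EEF2 was enriched less. Peaks upstream of exon 10 that were called on their own had folds of 1.09 to 1.49, and eIF3a replicate 2 had no peak over the first 5 exons. The codon of the threonine that EEF2K phosphorylates, near the start of the coding sequence, lay under a peak in METTL16 replicate 1 (1.44-fold), eIF3b replicate 1 (1.26-fold) and eIF3b replicate 2 (1.38-fold) and under none in the other 3 lists. In all, 1462 bases of EEF2 were under a peak in every list, and 1381 of them were coding.

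The long EEF2 peak stood near the top of every list by p-value but not by fold. The log10 p-value that exomePeak gave it was -1340 and -872 for METTL16, -764 and -1290 for eIF3a, and -2760 and -902 for eIF3b. By smallest p-value EEF2 ranked 5 of 5829 genes and 16 of 6337 in the METTL16 lists, 8 of 8166 and 20 of 5226 in the eIF3a lists, and 5 of 8063 and 5 of 7570 in the eIF3b lists. By highest fold it stood at the 33.0 and 28.5 percentiles (METTL16), the 15.2 and 26.0 percentiles (eIF3a) and the 35.5 and 16.18 percentiles (eIF3b). EEF1B2, EEF1D, EIF5A, GSPT1 and EIF5 also stood higher by p-value than by fold in every list where they had a peak, though not all near the top: GSPT1 and EIF5 were below the 50 percentile by p-value throughout, and EEF1D was at 54.7 in eIF3a replicate 2.

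**Figure D2:**
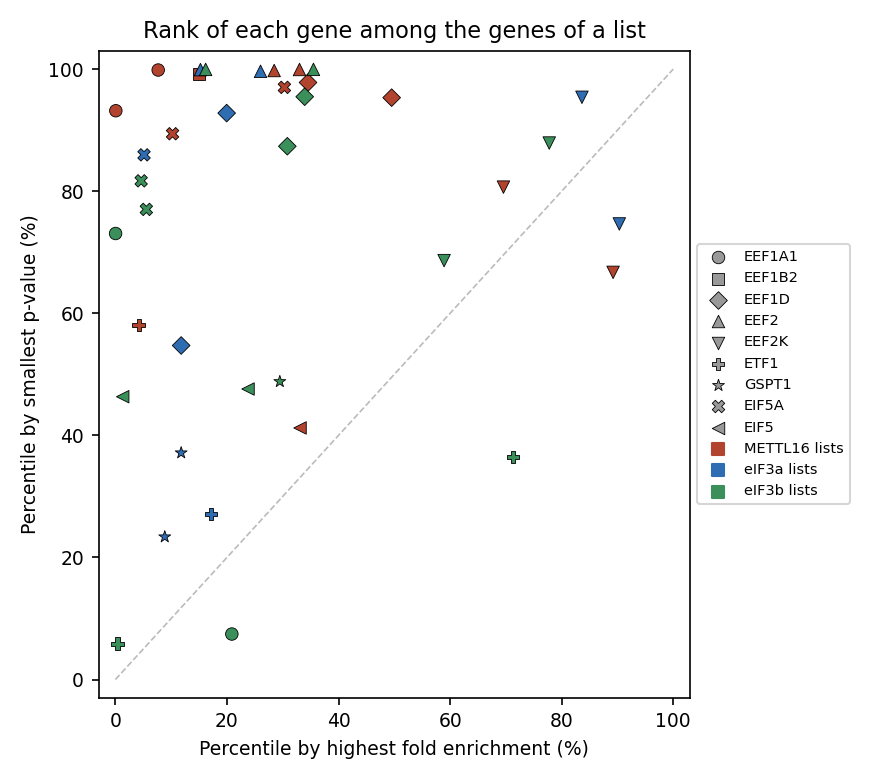
Each point is 1 gene in 1 list, placed by its percentile among the genes of that list by highest fold enrichment (horizontal axis, %) and by smallest p-value (vertical axis, %), with marker shape for the gene, colour for the protein and a dashed line where both are equal. EEF2 sits above the 99 percentile by p-value in all 6 lists and between the 15.2 and 35.5 percentiles by fold.

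EEF2K (chr16:22206278-22288738, plus strand), the kinase that inactivates eEF2, had the opposite shape: many narrow peaks, high folds and much of the signal in its 3′ UTR. Its transcript has 7398 exon bases, of which 4742 are 3′ UTR. The lists held 7 and 6 peaks for METTL16, 6 and 11 for eIF3a and 7 and 7 for eIF3b, covering 14.2% to 28.8% of the exon bases. The highest fold per list was 6.62 and 19.1, 14.4 and 15.9, and 5.78 and 8.81 in the same order. The eIF3a values were above both eIF3b values, and they lay between the METTL16 values. The 19.1-fold peak of METTL16 replicate 2 covered 91 bases with a log10 p-value of only -3.44, and the 15.9-fold peak of eIF3a replicate 2 had -3.77, while the 14.4-fold peak of eIF3a replicate 1 had -57.0.

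3 stretches of EEF2K, 392 bases in all, lay under a peak in every list. The first was 61 bases around the start codon, chr16:22225693-22225753. The others were 150 bases at chr16:22285518-22285667 and 181 bases at chr16:22285876-22286056, which begin 1522 and 1880 bases after the end of the coding sequence, in the last exon. At the most distal of them the peak fold was 5.13 and 3.95 for METTL16, 14.4 and 4.77 for eIF3a, and 4.68 and 6.68 for eIF3b, so the eIF3a lists were farther apart than those of either other protein. Folds at the start codon were 2.19 and 2.25, 4.59 and 2.60, and 3.60 and 6.97, with both METTL16 values below the other 4. The 30 bases around that start codon (plus strand, chr16:22225715-22225744, ATG in capitals) were as follows.
EEF2K start: gggcaccccaggaacATGgcagacgaagat

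Another 3′ UTR stretch of EEF2K was missed by a single list. A peak that began 5163 to 5282 bases after the start codon had a fold of 6.62 in METTL16 replicate 1, 5.25 and 10.4 in the eIF3a lists and 5.78 and 8.81 in the eIF3b lists. METTL16 replicate 2 had no peak there. Of the EEF2K peak bases, 22.0% and 53.5% were coding in the METTL16 lists, 30.4% and 19.4% in the eIF3a lists and 55.6% and 26.0% in the eIF3b lists, against 91.1% to 95.1% for EEF2. The transcripts themselves differ in this way, with 2178 of 7398 exon bases coding in EEF2K and 2577 of 3158 in EEF2. These shares alone thus do not show a preference for the 3′ UTR.

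**Figure D3:**
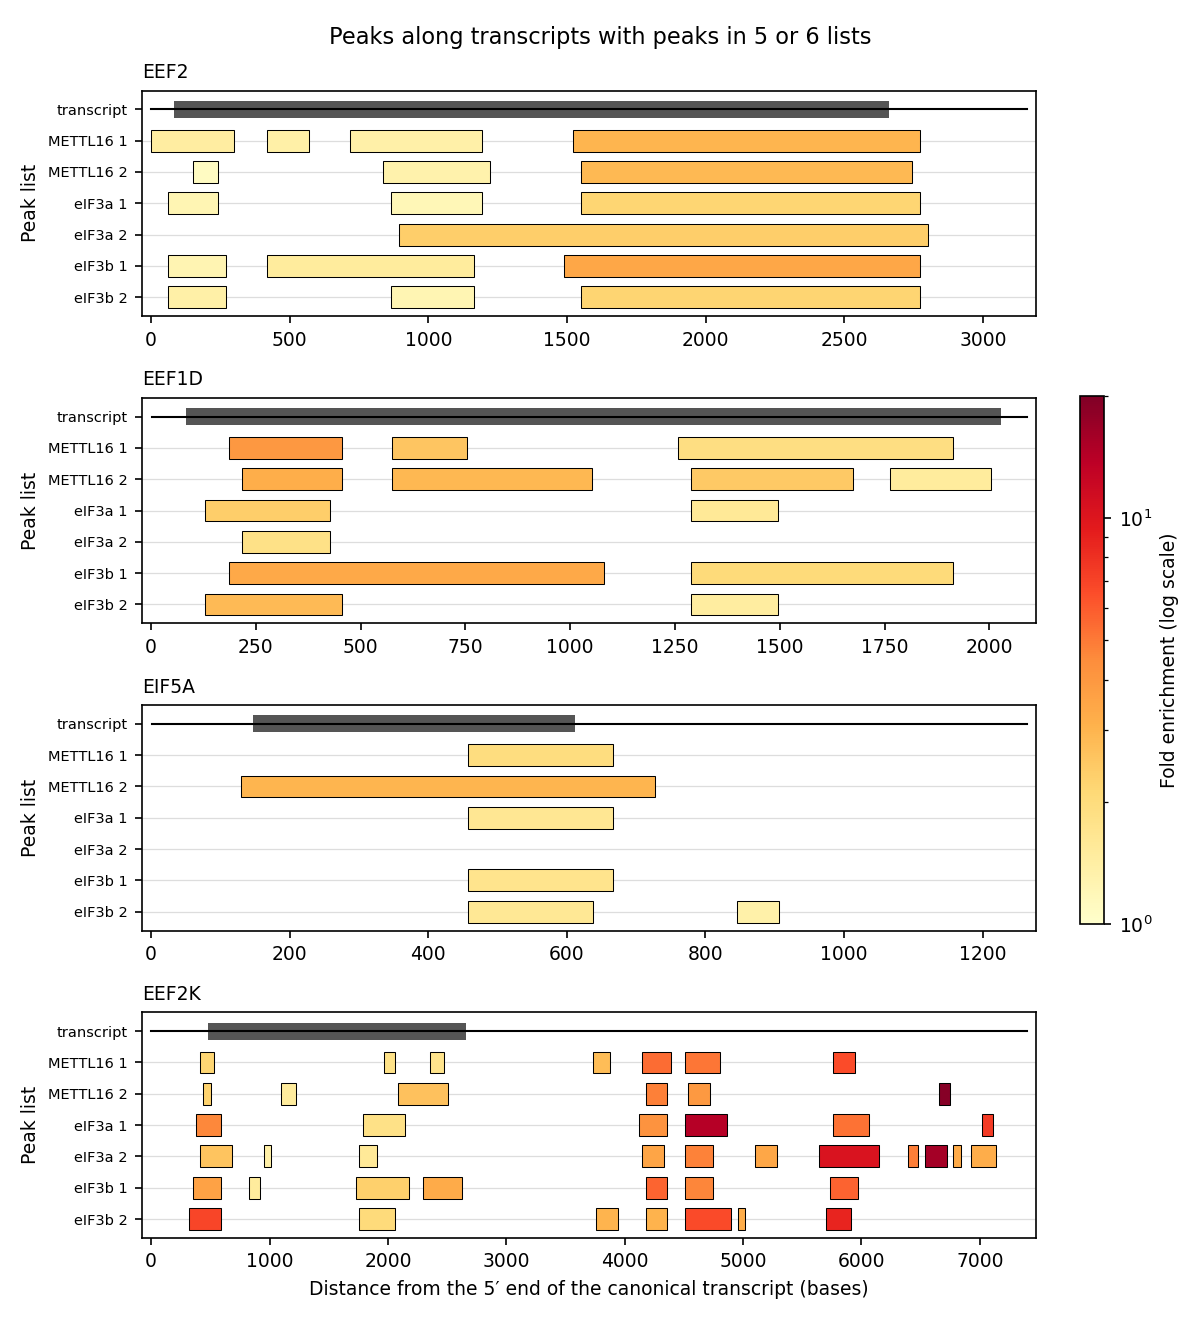
Peaks (boxes, coloured by fold enrichment on a log scale) along the canonical transcripts of EEF2, EEF1D, EIF5A and EEF2K, in bases from the 5′ end, with 1 line per list and the transcript on top (thick bar, coding sequence). EEF2 peaks fill the 3′ part of the coding sequence, and EEF2K peaks recur around the start codon and at 3 places in the 3′ UTR.

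The eEF1 genes differed among themselves. EEF1D was present in all 6 lists, EEF1A1 in 4, EEF1B2 in 1 and EEF1G, the scaffold subunit of eEF1B, in none. 3 of these 4 genes, EEF1A1, EEF1B2 and EEF1D, have a canonical transcript that begins with C and at least 4 further pyrimidines, as does EEF2, and EEF1G and the remaining 5 genes do not. The rule starts at the first annotated base, and EEF1G begins with ACTTT, an A before the C. EEF1G could thus be called otherwise with another annotated start. Among genes named in the lists, which leaves out genes without any peak, 550 began with C and at least 4 further pyrimidines. These had a peak in 62.4% and 62.2% of cases in the METTL16 lists, 73.5% and 49.1% in the eIF3a lists and 73.5% and 69.1% in the eIF3b lists. The shares for the 9759 other genes were 53.5% and 58.3%, 75.8% and 48.4%, and 74.8% and 70.5%.

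EEF1A1 (chr6, minus strand) is among the most highly expressed genes of most cells, yet its peaks were small. METTL16 replicate 1 and eIF3b replicate 1 held the same peak of 91 bases in exon 5, with folds of 1.15 and 1.08, the lowest folds at which any of the 10 genes was called apart from a 1.09-fold peak in EEF2. In METTL16 replicate 2 the peak was extended to 239 bases in exons 4 and 5, at 1.84-fold and a log10 p-value of -1220. eIF3b replicate 2 held instead 60 bases of the 3′ UTR, at 2.42-fold and a log10 p-value of -2.96. eIF3a had no EEF1A1 peak in either list. EEF1A1 was thus called in both eIF3b lists without a shared base. GENCODE annotates 49 EEF1A1 pseudogenes, so how reads were divided between the gene and its copies is uncertain. The shared peak (minus strand, chr6:73518758-73518848, coding, no base marked) was as follows.
EEF1A1 exon 5 peak: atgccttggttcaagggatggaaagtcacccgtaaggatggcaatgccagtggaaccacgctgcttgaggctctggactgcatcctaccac

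EEF1B2 (chr2, plus strand), the nucleotide exchange subunit eEF1Bα, was called only in METTL16 replicate 2. Its peaks of 207 and 236 bases had folds of 1.49 and 2.24 and together covered 54.8% of the 808 exon bases, and the stronger one had a log10 p-value of -375. EEF1B2, EEF1D and EEF1G each have 8 annotated pseudogenes, ETF1 and EIF5A 3 each and EIF5 2, so the same uncertainty applies. No pseudogene named after EEF2, EEF2K or GSPT1 was found. Pseudogenes were counted by the name of the gene, so copies under other names were left out.

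EEF1D encodes eEF1Bδ, the other exchange subunit, and also a longer protein, eEF1BδL, which is known as a transcription factor of the heat-shock response and is made from transcripts with a large extra coding exon. The highest fold of EEF1D was 4.0 and 3.20 in the METTL16 lists, 2.37 and 1.83 in the eIF3a lists and 3.36 and 2.86 in the eIF3b lists, and in all 6 lists it was in that exon of 1091 bases. Elsewhere in the gene the highest folds were 1.91 and 2.47, 1.58 and none, and 2.05 and 1.46. By p-value the order was the reverse in every list with a peak elsewhere. The smallest log10 p-value elsewhere was -89.5 and -156 for METTL16, -41.6 for eIF3a replicate 1, and -141 and -33.4 for eIF3b. Within the exon it was -46.6 and -28, -21.7, and -65.6 and -29.8 in the same lists. Peaks covered 448 and 716 bases of the exon in the METTL16 lists, 298 and 209 in the eIF3a lists and 894 and 328 in the eIF3b lists. The 209 bases that all 6 lists shared lay wholly within it. The exon is in 3 of 19 GENCODE basic protein coding transcripts of EEF1D, those with at least 647 codons, and the longest without it has 281. Of all 45 annotated protein coding transcripts, 23 hold bases of it. All peaks outside this exon lay in exons 4 to 10, and eIF3a replicate 2 had none there.

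EIF5A (chr17:7306999-7312463, plus strand) had a peak across the stop codon in 5 lists. METTL16 replicate 1, eIF3a replicate 1 and eIF3b replicate 1 held a peak with identical ends, 210 bases in exons 4 to 6 across the stop codon, with folds of 1.95, 1.64 and 1.73. In eIF3b replicate 2 the peak was 180 bases long, with the same 5′ end and a fold of 1.61. METTL16 replicate 2 extended it to 598 bases from exon 2 at 2.97-fold, which covered the whole coding sequence. eIF3a replicate 2 had none. Both METTL16 folds were above both eIF3b folds. The 180 bases common to the 5 lists hold 155 coding bases, and the first and second of their 3 exon blocks (plus strand, chr17:7311390-7311481 and chr17:7311578-7311651, stop codon in capitals) were as follows.
EIF5A exon 4 block: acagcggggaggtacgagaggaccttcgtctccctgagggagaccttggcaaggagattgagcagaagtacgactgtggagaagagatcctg
EIF5A exon 5 block: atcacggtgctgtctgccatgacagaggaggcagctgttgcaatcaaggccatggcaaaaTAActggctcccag

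EIF5AL1, a close copy of EIF5A, had peaks in both METTL16 lists, with highest folds of 5.74 and 15.5, and in no eIF3 list. Since the copies are alike in sequence, the division of reads between EIF5A and EIF5AL1 is uncertain. EIF5A2, the paralog with restricted expression, had a peak in eIF3a replicate 1 and eIF3b replicate 2 only.

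The termination factor genes were called at different places in different lists. ETF1 (chr5, minus strand) had 1 peak in each of 4 lists, and only the eIF3a replicate 1 and eIF3b replicate 1 peaks overlapped. In METTL16 replicate 2 the peak was 150 coding bases in exons 5 and 6, at 1.65-fold, and held the codons of the glycine-glycine-glutamine motif with which eRF1 triggers release of the chain. In eIF3a replicate 1 it was 90 bases of 5′ UTR at 2.26-fold. In eIF3b replicate 1 the whole 5′ UTR and the first 78 coding bases were enriched, at 8.24-fold, the highest fold outside EEF2K. eIF3b replicate 2 held 61 bases of the 3′ UTR at 1.26-fold, so both eIF3b lists called ETF1 but not at a common position.

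GSPT1 (chr16:11868128-11916082, minus strand) had peaks in both eIF3a lists and in eIF3b replicate 2, and none in METTL16. The eIF3a peaks had folds of 1.85 and 1.83 and lay in the 3′ UTR, ending 3975 and 4871 bases after the coding sequence, without a shared base. eIF3b replicate 2 held 3 peaks of 1.19-, 2.80- and 1.72-fold, the first in coding exons 3 and 4 and the others in the 3′ UTR. All 5 GSPT1 peaks had a log10 p-value between -3.76 and -7.54. No base of GSPT1 was under a peak in more than 1 list.

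EIF5 (chr14, plus strand), which encodes the GTPase-activating protein of eIF2 in start codon selection, was called at its 5′ end and near the end of its coding sequence. METTL16 replicate 2 held 300 bases of the 5′ UTR in exons 1 to 3 at 3.12-fold. eIF3b replicate 1 held a 5′ peak at 2.75-fold, with 95 of 151 bases on the canonical transcript. Both eIF3b lists held a coding peak with identical ends, at 1.40- and 1.38-fold. eIF3a had no EIF5 peak.

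**Figure D4:**
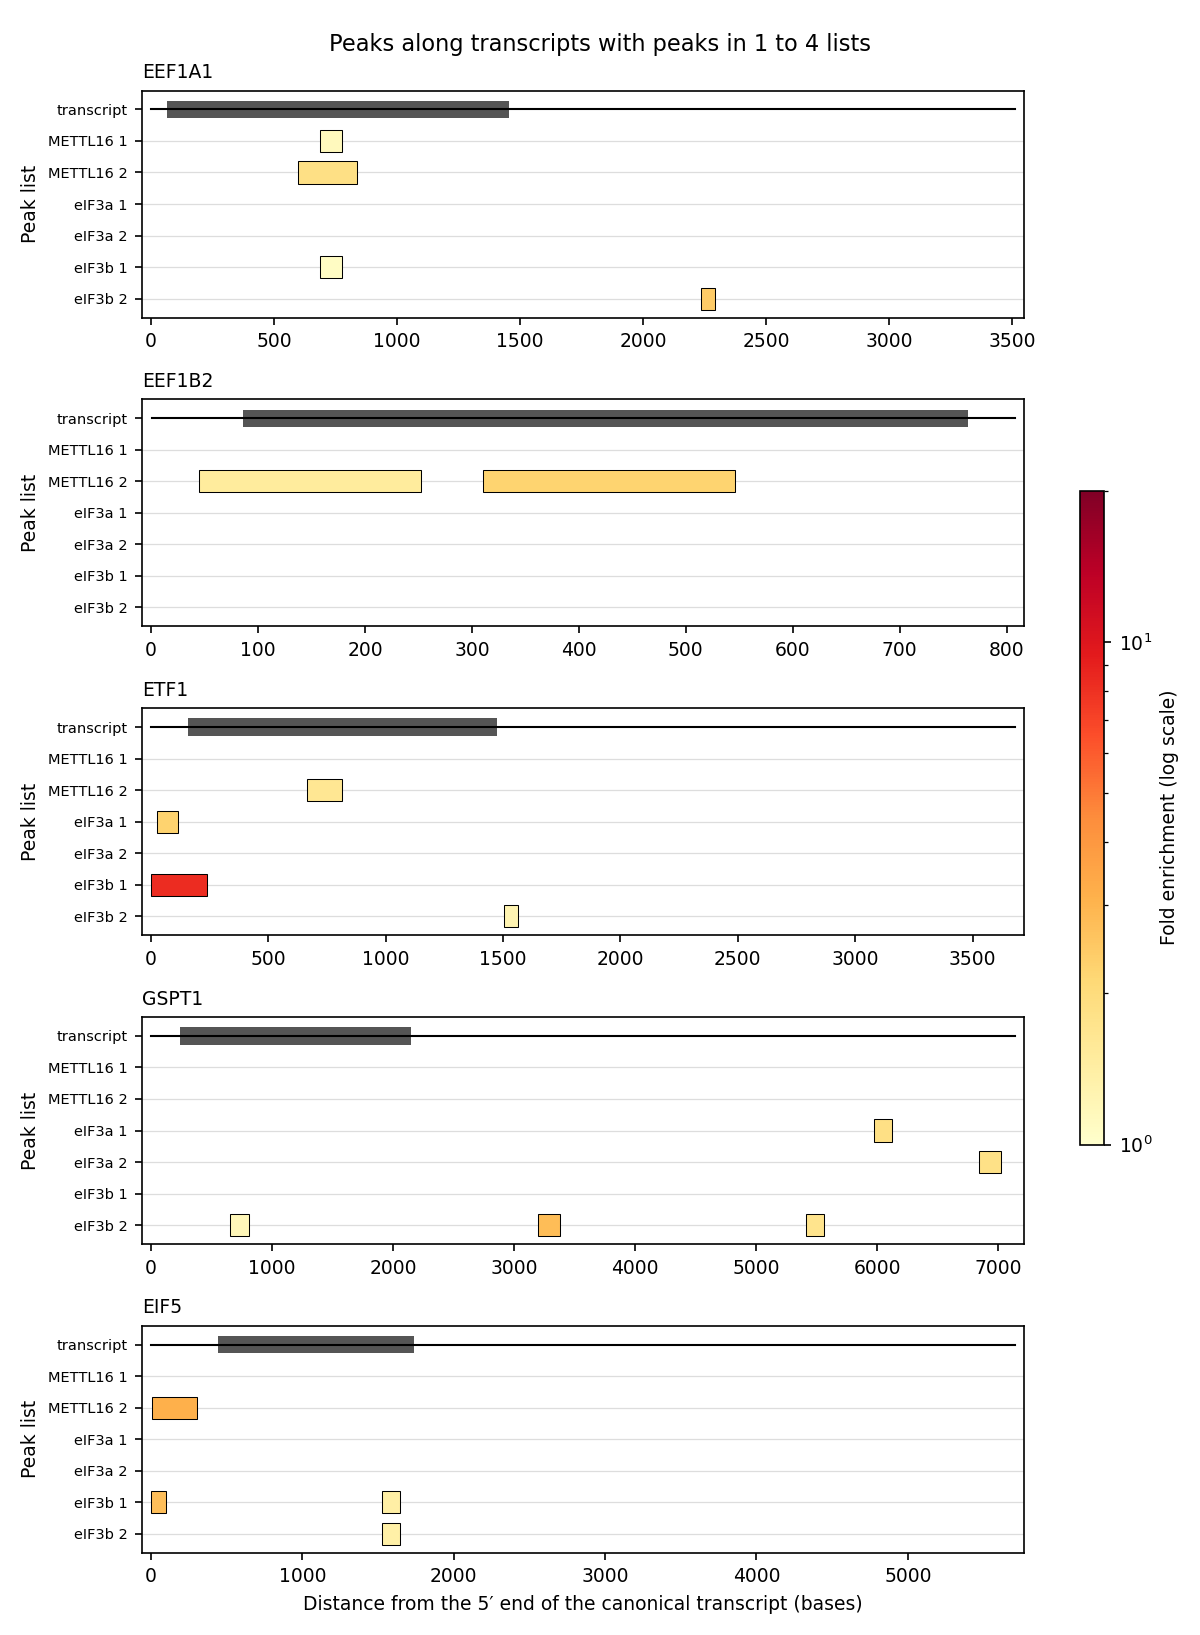
Peaks (boxes, coloured by fold enrichment on a log scale) along the canonical transcripts of EEF1A1, EEF1B2, ETF1, GSPT1 and EIF5, in bases from the 5′ end, with 1 line per list and the transcript on top (thick bar, coding sequence). Positions recur only for the 91-base peak of EEF1A1, with its extension in METTL16 replicate 2, for the 5′ peaks of ETF1 and EIF5, and for the coding peak of EIF5.

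Over the 100 peaks of the 10 genes, 40 held only coding bases, 34 only 3′ UTR bases and 3 only 5′ UTR bases. A further 13 held 5′ UTR and coding bases and 11 held coding and 3′ UTR bases, with 1 EIF5A peak counted in both. Most of the peaks with only 3′ UTR bases were those of EEF2K. That gene held 7 and 6 of the peaks in the METTL16 lists, 6 and 11 in the eIF3a lists and 7 and 7 in the eIF3b lists. Shares of these classes over all peaks are not given here. Width ran from 60 to 1908 bases with a median of 210, and 47 peaks were spliced over at least 2 blocks. For all peaks of a list, the median width was 180 to 210 bases and 37.9% to 45.7% were spliced. In the order METTL16, eIF3a and eIF3b, replicates 1 and 2, the median fold of these peaks was 2.07, 2.47, 2.22, 3.275, 2.75 and 2.11, and that of all peaks of the list 3.09, 3.40, 2.98, 2.73, 3.20 and 2.94. The genes' median was below that of the list in all but eIF3a replicate 2, where 11 of the 14 peaks were those of EEF2K.

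The proteins were compared on 3 values per list. A METTL16 list had a peak in 6.5 ± 2.12 of the 10 genes, an eIF3a list in 5.0 ± 1.41 and an eIF3b list in 7.5 ± 0.707 (SD, n = 2 lists). The mean share of exon bases under peaks, with a gene without a peak as 0, was 20.3% ± 6.53, 11.2% ± 1.38 and 16.5% ± 4.50. The coding share of the genes' peak bases was 78.6% ± 4.81, 59.1% ± 7.30 and 71.1% ± 13.3. For all peaks of a list, the coding share was 63.1% and 71.6% in the METTL16 lists, 60.7% and 63.6% in the eIF3a lists and 66.1% and 62.4% in the eIF3b lists.

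METTL16 exceeded eIF3a by 9.19 percentage points in exon bases under peaks and by 19.5 points in coding share, and on both values the lists of the proteins did not overlap. The first difference was 4.57 points without METTL16 replicate 2, 13.8 without METTL16 replicate 1 and 2.76 over the union of a gene's exons. Without EEF2K the second was 5.66 points. The difference of eIF3a from eIF3b was -2.5 genes and -5.35 points of exon bases, again without overlap of the lists, and -11.9 points in coding share, with overlap. Without eIF3a replicate 2 the first of these was -1.5 genes. The second was -2.16 points without eIF3b replicate 1, -8.53 without eIF3b replicate 2 and -1.99 over the union of exons. The third ran from -21.3 points without eIF3b replicate 2 to -2.56 without eIF3b replicate 1. METTL16 and eIF3b differed by -1 gene, 3.84 points and 7.52 points, each with overlapping lists. An exact permutation test of 2 lists against 2 cannot give a two-sided p below 0.333, so that test could not pass a threshold of 0.05 for any of these 9 differences. The lists also differed in length, from 12921 to 21733 peaks, and the part of list length in these differences was not tested.

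**Figure D5:**
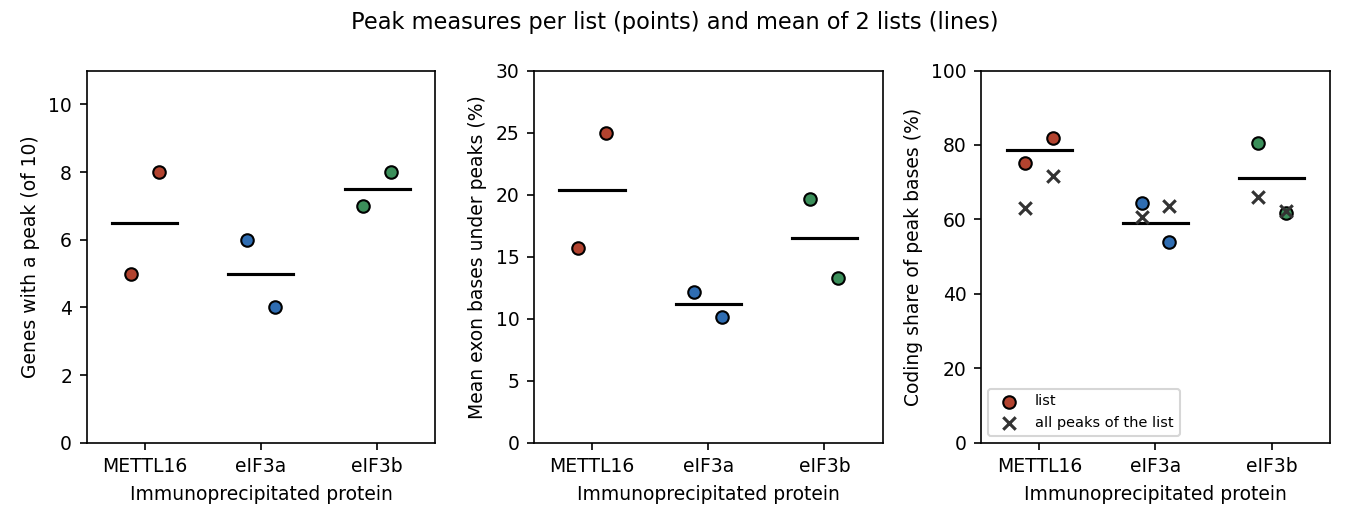
Number of genes with a peak, mean share of exon bases under peaks (%) and coding share of peak bases (%) for the 10 genes, by protein, with a point per list (replicate 1 on the left) and a line at the mean of 2 lists. Crosses in the right panel show the coding share of all peaks of the same list. Both METTL16 points and the replicate 1 points of eIF3a and eIF3b lie above their crosses. The replicate 2 points of eIF3a and eIF3b lie below theirs.

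Highest fold was also compared gene by gene, for genes with a peak in all 4 lists of a pair of proteins. Between METTL16 and eIF3a, EEF1D and EEF2 of 3 such genes were higher in both METTL16 lists, a pattern that 36.1% of 2820 genes showed, and none was lower, against 8.62%. Between METTL16 and eIF3b, EIF5A of 5 genes was higher in METTL16, against 18.9% of 3945 genes, and none was lower, against 18.7%. Between eIF3a and eIF3b, EEF2K of 3 genes was higher in eIF3a, against 7.53% of 3985 genes, and EEF1D was lower, against 34.0%. These pairs share lists, so the results are not independent of each other. The highest folds of a gene can also lie at different positions. For EEF2K, the 15.9-fold peak of eIF3a replicate 2 had a log10 p-value of -3.77, and neither eIF3b list had a peak there. In each stretch of EEF2K under a peak in every list, the eIF3a and eIF3b folds overlapped. At the most distal they were 14.4 and 4.77 for eIF3a and 4.68 and 6.68 for eIF3b.

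A list of 43 further genes of elongation, termination, recycling and rescue, with the enzymes that modify the factors and the mitochondrial factors, was examined in the same way. Of these, 16 and 20 had a peak in the METTL16 lists, against 53.8% and 58.5% of all gene names in the lists. The eIF3a lists held 25 and 15, against 75.4% and 48.3%, and the eIF3b lists 21 and 22, against 74.5% and 69.9%. METTL16 bound 11 of the 43, against 42.6% of all gene names, eIF3a 11, against 42.4%, and eIF3b 16, against 60.0%. The 43 include 7 genes with no peak in any list, a kind that the background leaves out. 4 genes had a peak in all 6 lists, against the background of 25.2%: DNAJC24, a cofactor of diphthamide synthesis, HBS1L, a ribosome rescue factor, and GTPBP1 and GTPBP2, GTPases related to the elongation factors. The p-values, widths and positions of the peaks of these 4 genes are not given here. A high fold can come with a weak p-value, as for EEF2K above. Highest folds of DNAJC24 were 14.6 and 10.7 for METTL16, 28.5 and 7.96 for eIF3a and 38.1 and 30.8 for eIF3b, with both eIF3b values above the other 4. Those of HBS1L were 21.2 and 2.47, 24.8 and 8.57, and 12.4 and 19.1, and the ranges of the 3 proteins overlapped. Those of GTPBP1 lay between 4.73 and 6.18 in all lists. Those of GTPBP2 were 5.11 and 5.56, 2.73 and 1.54, and 37.1 and 17.6, so that the 3 proteins did not overlap. Such patterns were common among all genes with a peak in the lists compared. Of these, 36.1% were higher in METTL16 than eIF3a, 18.7% lower in METTL16 than eIF3b and 34.0% lower in eIF3a than eIF3b. The share of genes with several of these patterns at once was not computed.

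The groups are given beside the same background of 42.6% for METTL16, 42.4% for eIF3a and 60.0% for eIF3b, and are small. Of 11 termination, recycling and rescue genes, METTL16 bound 5, eIF3a 5 and eIF3b 6. Of 17 modifier genes the counts were 4, 2 and 4. Of 9 mitochondrial factor genes, METTL16 bound none, although 1 and 4 had a peak in its lists, while eIF3a bound 3 and eIF3b 4. Of 6 paralogs and partners the counts were 2, 1 and 2. Among the enzymes that make the modified residues shown above, DOHH, the second enzyme of hypusine synthesis, had a peak in both METTL16 lists, in eIF3a replicate 1 and in eIF3b replicate 1, and DHPS, the first, in METTL16 replicate 2 alone.

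The letters ACAGAGA, the core of the sites at which METTL16 methylates MAT2A and U6 RNA, were searched on the transcript strand. None of the 100 peaks held them, where 3.24% to 5.35% of the peaks on canonical transcripts did, depending on the list. Of the 10 canonical transcripts, those of EEF1A1 and GSPT1 held the letters once each, in coding sequence outside every peak, and 33.7% of 20020 canonical transcripts held them at least once.

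For the genes with a peak in at least 5 lists, the gene with the most similar pattern was sought among genes with peaks in the same lists, by the root mean square difference of log2 highest fold. The nearest to EEF1D was SEMA3B, at 0.11 over 6 lists, where the median gene stood at 1.08. The nearest to EEF2 was NECAB3 at 0.13, with a median of 1.14. The nearest to EEF2K was SLC43A2 at 0.42, with a median of 1.66. The nearest to EIF5A was ALDH1B1 at 0.07 over 5 lists, among 1008 genes with a median of 0.91. Each nearest gene is the smallest of many differences and so lies below the median by construction. Whether any of these pairs is more alike than such a search would give was not tested.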

How the data were processed

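RIP and input RNA of HepG2 cells were sequenced by the authors with stranded libraries, mapped to GRCh38 with STAR and compared with exomePeak at default settings. Tool versions, the annotation used and which input served which sample are not given in the sources used here. For each peak of a RIP sample the authors deposited its exonic blocks, a p-value, the log10 of that p-value and of an adjusted p-value (each a score that the program gives) and the fold enrichment over input, a ratio. These are the authors' values and were not recomputed. No deposited adjusted p-value exceeded 0.0501.

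Rows were selected by gene name. Block starts were counted from 0 in the lists and are given here counted from 1. Peak bases were placed on GENCODE release 44 canonical transcripts with Python 3.11.15, pandas 2.3.3 and NumPy 2.4.6, in scripts tested on simulated data. All 10 genes are named. Of the 43 further genes, those with a peak in all 6 lists were to be named, as was the gene nearest in fold pattern to each of the 10 with a peak in at least 5 lists. EIF5AL1, EIF5A2, DOHH, DHPS and the liver genes were named after their values were seen. The members and lists were chosen with earlier results of these data known. Per list, 3 values were compared between proteins as differences of means of 2 replicates. Alternatives were a fold of at least 4, the 5000 peaks of smallest p-value per list, an adjusted p-value of at most 0.01, other exon definitions, a peak in either replicate, a replicate block and leaving out each replicate. The 6 inputs were used only through the authors' peak calling. The sequence of 1 peak is not reported here.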

Additional observations from a re-analysis of the deposited data

How the results depend on the processing

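The 12 results were recomputed in 111 ways, of which 96 did not reverse the direction or, for counts, stayed within 1.5 times, 9 changed direction and 6 moved a count further. The 96 include differences in genes with a peak that fell to 0. These were METTL16 minus eIF3a without METTL16 replicate 2 and METTL16 minus eIF3b among peaks of at least 4-fold. Among peaks of at least 4-fold, the difference in exon bases under peaks changed to -0.188 points for METTL16 minus eIF3a, -0.0405 for METTL16 minus eIF3b and 0.147 for eIF3a minus eIF3b, and each protein bound 1 gene. With 5000 peaks per list METTL16 exceeded eIF3b by 1.5 genes, and eIF3b bound 4. METTL16 bound 8 genes when a peak in either replicate sufficed. Over genes with a peak in all 6 lists, METTL16 minus eIF3b in exon bases was -0.00515 points. Without EEF2K, an alternative chosen after seeing the data, eIF3a minus eIF3b in coding share was 0.287 points. The cause of these changes was not tested, except that a filter on fold or length leaves fewer peaks.

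When each list was left out in turn, METTL16 minus eIF3b ran from -2.5 to 0.5 genes, from -0.774 to 8.46 points of exon bases and from -1.86 to 16.9 points of coding share. The sign turned without METTL16 replicate 1, without METTL16 replicate 2 and without eIF3b replicate 2, respectively. METTL16 minus eIF3a ran from 0 to 3 genes, from 4.57 to 13.8 points of exon bases and from 14.3 to 24.6 points of coding share. The range of eIF3a minus eIF3b was -3.5 to -1.5 genes, -8.53 to -2.16 points of exon bases and -21.3 to -2.56 points of coding share. METTL16 bound 5 to 8 genes, with 8 on replicate 2 alone.

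Replicate numbers are shared between the proteins, but same-numbered lists did not deviate together: the correlation of their replicate differences in log2 highest fold over 2730 genes was 0.0481, -0.0262 and 0.00793 for the 3 pairs of proteins. With the replicate block the differences are the same by construction (1.5 genes for METTL16 minus eIF3a), and the smallest exact p it allows is 0.5. Depth is unknown, so an absent peak does not show that an RNA was not bound.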
